A study of Mus musculus with 2 samples.

Results

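The AP-1, ATF3 and EGR immediate early factors were followed in RNA-seq of mouse MDSCs, short for myeloid-derived suppressor cells, grown from bone marrow. These are immature granulocytic and monocytic cells that restrain T cells in tumours and chronic inflammation. The set was chosen by gene symbol and held 10 genes of the 54751 in the deposited table: the FOS subunit genes Fos, Fosb, Fosl1 and Fosl2, the JUN subunit genes Jun, Junb and Jund, and the genes Atf3, Egr1 and Egr2. All 10 were found and all averaged at least 1 CPM (the count scaled to the size of the library). The treated cells were wild-type cells given mrWNT2 on day 0 and day 3, and the control cells were wild-type cells given vehicle, both collected on day 6. WNT2, a secreted protein, activates WNT signalling through Frizzled receptors. The sources used here do not give the strain or age of the mice, the factors used to derive the cells, or the dose of mrWNT2. There was 1 library per group, with 12621110 counts for mrWNT2 and 13474453 for control, so no difference below has a replicate check. Intervals are exact 95% limits of Clopper and Pearson computed from the counts of a gene. They cover counting error only and compare these 2 libraries.

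Immediate early factors are transcription factors whose genes are switched on within minutes of a stimulus, without new protein synthesis, chiefly through MAP kinases. AP-1 is a dimer of a JUN subunit with a FOS subunit, another JUN subunit or an ATF protein, joined through a leucine zipper and bound to DNA by a basic region (bZIP). The EGR proteins bind GC-rich sites through zinc fingers. In myeloid cells these factors take part in monocyte and macrophage differentiation and in the response to inflammatory signals. Their transcripts are short-lived, and the cells here were collected 3 days after the second treatment.

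RefSeq promoter windows (250 bases before to 50 after the start, build GRCm38.p6) were found for 8 of the 10 genes, and Fosl1 and Egr1 were not among them. Those of Junb and Egr2 are shown because these genes were the highest and the lowest of the set in mrWNT2 over control. Those of Fos and Jun are shown as abundant FOS and JUN subunits within 1.1-fold between the libraries, and that of Atf3 as the stress-induced partner. Capitals mark exact matches to the motifs described in the next paragraph.
Junb promoter, chr8:84978699-84978998, minus strand: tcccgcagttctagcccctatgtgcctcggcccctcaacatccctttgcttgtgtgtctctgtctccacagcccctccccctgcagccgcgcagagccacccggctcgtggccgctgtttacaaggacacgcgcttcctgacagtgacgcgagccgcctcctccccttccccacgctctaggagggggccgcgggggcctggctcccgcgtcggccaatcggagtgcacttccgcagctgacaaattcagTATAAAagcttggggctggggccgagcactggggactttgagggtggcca
Egr2 promoter, chr10:67535249-67535548, plus strand: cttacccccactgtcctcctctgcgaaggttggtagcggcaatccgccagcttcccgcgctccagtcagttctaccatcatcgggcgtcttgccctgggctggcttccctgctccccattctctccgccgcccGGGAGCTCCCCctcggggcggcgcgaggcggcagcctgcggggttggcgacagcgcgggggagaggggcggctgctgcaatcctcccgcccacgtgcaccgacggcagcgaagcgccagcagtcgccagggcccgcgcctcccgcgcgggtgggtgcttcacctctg
Fos promoter, chr12:85473640-85473939, plus strand: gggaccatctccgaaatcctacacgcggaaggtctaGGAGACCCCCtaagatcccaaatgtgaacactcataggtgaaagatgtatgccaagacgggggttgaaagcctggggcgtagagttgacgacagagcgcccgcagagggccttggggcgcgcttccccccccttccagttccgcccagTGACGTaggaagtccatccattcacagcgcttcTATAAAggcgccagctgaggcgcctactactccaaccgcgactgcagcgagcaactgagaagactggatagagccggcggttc
Jun promoter, chr4:95052173-95052472, minus strand: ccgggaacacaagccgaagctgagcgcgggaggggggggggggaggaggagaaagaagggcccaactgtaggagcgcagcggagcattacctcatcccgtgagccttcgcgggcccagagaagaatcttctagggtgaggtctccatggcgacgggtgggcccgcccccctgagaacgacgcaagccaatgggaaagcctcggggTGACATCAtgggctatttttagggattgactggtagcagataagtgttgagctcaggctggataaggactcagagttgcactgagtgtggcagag
Atf3 promoter, chr1:191183284-191183583, minus strand: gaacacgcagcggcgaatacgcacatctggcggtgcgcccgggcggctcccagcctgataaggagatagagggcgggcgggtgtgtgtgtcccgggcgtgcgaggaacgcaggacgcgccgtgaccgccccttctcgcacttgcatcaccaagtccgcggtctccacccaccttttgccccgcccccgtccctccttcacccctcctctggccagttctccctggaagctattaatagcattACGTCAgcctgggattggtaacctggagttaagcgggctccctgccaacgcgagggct

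Motifs were searched on both strands in each gene's most upstream window. The cAMP response element (CRE) TGACGTCA was in 0 of 8 windows, against 1.79% of all 32851 windows, and the AP-1 site TGAGTCA or TGACTCA was in 0 of 8, against 5.20%. The variant TGACATCA was in 1 of 8, that of Jun, against 3.62%, and lay 45 bases before the start. The shorter CRE core TGACGT, a part of the full CRE, was in 2 of 8, Fos and Atf3, against 7.51%. The EGR site GCGGGGGCG was in 2 of 8, Fosb and Fosl2, against 2.91%. The NF-kB motif was in 4 of 8 (Egr2, Fos, Fosb and Fosl2), against 8.46%, and in Egr2 and Fosl2 its matches on the 2 strands overlapped. The CArG box, bound by SRF, was in 0 of 8, against 1.63%, and the TCF/LEF motif CTTTGAT or CTTTGAA in 0 of 8, against 8.65%. Sites outside the windows, and any of Fosl1 and Egr1, were out of reach of this search. Other forms of the TCF/LEF motif were not searched. A TATA box (TATAAA or TATATA) was in Fos and Junb, against 17.1% of all windows. In Junb it began at the RefSeq start itself, which lies 30 bases upstream of the start of the deposited gene model. The windows were rich in G and C, with a median of 64.7% against 52.7% over all windows, and the part of base composition in these matches was not tested. The window of Jund ended before the deposited gene model, whose start lay 1210 bases downstream of the RefSeq start. The windows of Atf3 and Fosl2 lay inside the deposited gene models, with RefSeq starts 34706 and 671 bases downstream of the deposited ones. Junb, the gene with the highest ratio, thus matched none of the searched motifs but the TATA box in this window.

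**Figure D1:**
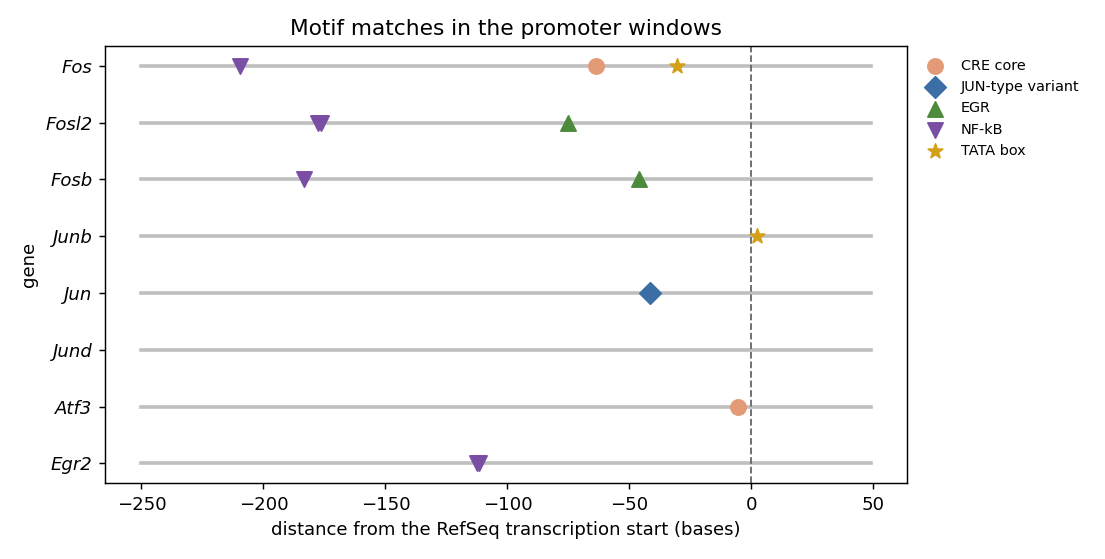
Positions of motif matches in the 300-base promoter windows of 8 genes, by distance in bases from the RefSeq transcription start (dashed line); each symbol is a match to 1 motif, and overlapping matches lie on each other. NF-kB matches lie between 214 and 107 bases before the start in 4 genes, and Junb has a TATA box alone.

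The comparison of mrWNT2-treated with vehicle-treated cells asked how exposure to WNT2 during culture alters gene expression. Among the immediate early factors it showed 1 large difference: Junb was 2.11-fold higher in the mrWNT2 library. Egr1 and Fosl1 were each about 1.52-fold higher and Egr2 was 1.58-fold lower, while Fos, Fosl2, Jun and Jund lay within 1.1-fold. By TMM-scaled counts, 3 of 10 genes were at least 1.5-fold higher, against 7.62% of the 12856 genes that averaged at least 1 CPM, called measured here. In the other direction, 1 of 10 was at least 1.5-fold lower, against 7.02% of all. At least 2-fold higher was 1 of 10, against 3.38%, and 0 of 10 were at least 2-fold lower, against 2.49%. The median log2 ratio over the 10 genes was 0.07, beside 0.02 over all measured genes, with 7 ratios above 1 and 3 below.

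Egr1 and Fosl1 sat so close to 1.5-fold that the scaling decided their place. By the ratio of deposited FPKM, which carries DESeq2 size factors, Fosl1 was 1.49-fold and Egr1 1.48-fold higher, and Fosb was 1.53-fold lower. The counts then became 1 of 10 higher and 2 of 10 lower, against 6.94% and 7.65% of all measured genes under DESeq2 scaling. Junb and Egr2 stayed past 1.5-fold under every scaling run (TMM, DESeq2, upper quartile and total counts).

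**Figure D2:**
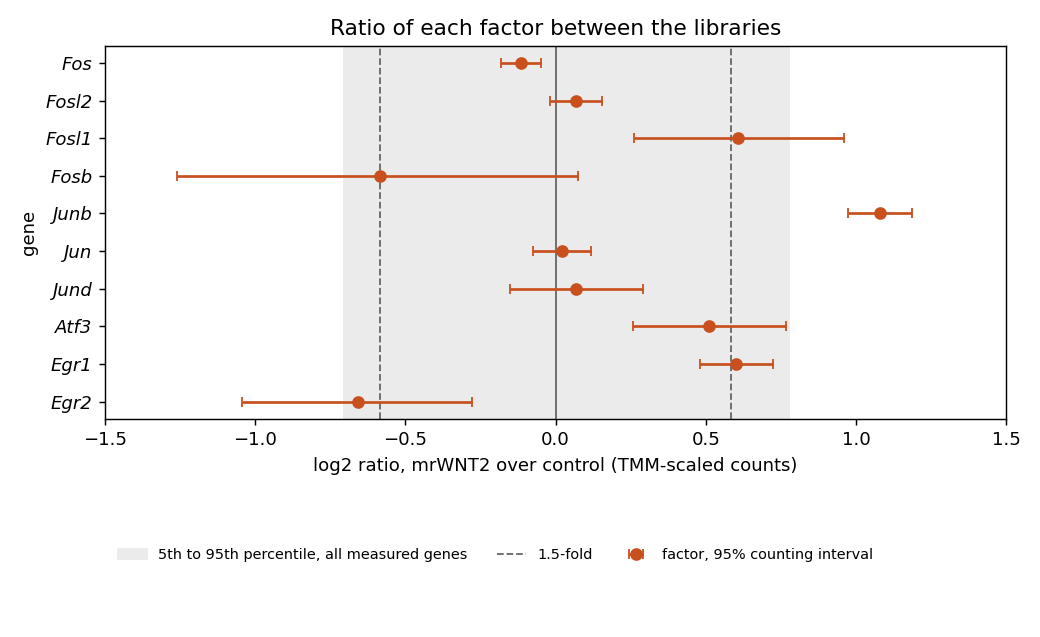
The log2 ratio of mrWNT2 over control for each gene (points) with its 95% counting interval (bars); dashed lines mark 1.5-fold and the grey band the 5th to 95th percentile of all measured genes (-0.71 to 0.78). Junb, at 1.08, is the only gene outside the band, and Fosb has the widest interval.

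Among the JUN subunits, Junb carried the difference. Junb (ENSMUSG00000052837, chromosome 8, 84974484 to 84978718, minus strand, GRCm38) encodes a subunit that can act against JUN and that limits myeloid cell expansion in mice. It had 2154 counts in the mrWNT2 library and 1071 in control, or 169 CPM and 80.1 CPM. Junb was thus higher with mrWNT2, by 2.11-fold (1.96 to 2.28), a ratio above that of 97.1% of measured genes. The deposited table gives a transcription factor family to 515 genes that averaged at least 10 CPM, and among these Junb had the largest gain in CPM (89.3) and a ratio that ranked 4 from the highest.

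Jun (ENSMUSG00000052684, chromosome 4, 95049034 to 95052222), the founding AP-1 subunit and a target of JUN N-terminal kinase, had 1746 counts in the mrWNT2 library and 1809 in control. That was 137 CPM against 135 CPM, a ratio of 1.01 (0.95 to 1.08). Jund (chromosome 8, 70698949 to 70700616), a subunit usually expressed without stimulation, had 339 counts in mrWNT2 and 340 in control, a ratio of 1.05 (0.899 to 1.22). Both intervals included 1, and the libraries differed in these genes by less than counting error.

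The Junb gene shares its last 351 bases with the oppositely directed peroxiredoxin gene Prdx2. Prdx2 had 789 counts in mrWNT2 and 537 in control, 1.55-fold higher (1.38 to 1.73). The sources used here do not say if counting used the strand of a read, so reads of the shared stretch cannot be assigned with certainty. The sum of Junb and Prdx2, chosen after the values were seen, was 1.92-fold higher (1.81 to 2.05), with 2943 and 1608 counts. Jun shares 689 bases with its antisense gene Junos, which had 600 counts in mrWNT2 and 528 in control, and the sum of Jun and Junos had a ratio of 1.06 (0.996 to 1.12). The annotated genes inside Jund and Atf3, Gm11175 and Gm24748, had 0 counts in both libraries.

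The make-up of the JUN pool therefore differed between the libraries. Per gene length, Junb was the leading JUN transcript in the mrWNT2 library, at 72.8 FPKM beside 42.6 for Jun and 15.8 for Jund. In control Jun led, at 42.9 FPKM beside 35.2 for Junb and 15.4 for Jund. FPKM divides by the deposited gene length, 2301 bases for Junb and 3189 for Jun. The principal protein-coding transcript of Junb has 1809 bases, and that of Jun 3189. With the transcript lengths Junb would stand above Jun in control as well. The leading gene in control, and the shares and sums below, therefore depend on the length used. Junb made up 55.5% of the summed JUN level in mrWNT2 and 37.6% in control. Jun made up 32.5% in mrWNT2 and 45.9% in control. The summed JUN level was 131 FPKM in mrWNT2 and 93.5 FPKM in control, a 1.40-fold ratio, whereas the summed FOS level was 138 FPKM in mrWNT2 and 148 FPKM in control. The JUN sum thus stood at 0.948 of the FOS sum in the mrWNT2 library and at 0.633 in control. These are transcript levels, and the abundance of the proteins or of their dimers was not measured.

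Ratios between genes of 1 library need no scaling to library size. The ratio of Junb to Jun was 1.71 in the mrWNT2 library and 0.821 in control (FPKM), and it differed 2.08-fold (1.89 to 2.30, exact conditional interval of the odds ratio from the counts). Set against Fos, Junb differed 2.29-fold (2.10 to 2.50), and against Jund 2.02-fold (1.70 to 2.39), so the difference of Junb did not rest on the choice of scaling.

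**Figure D3:**
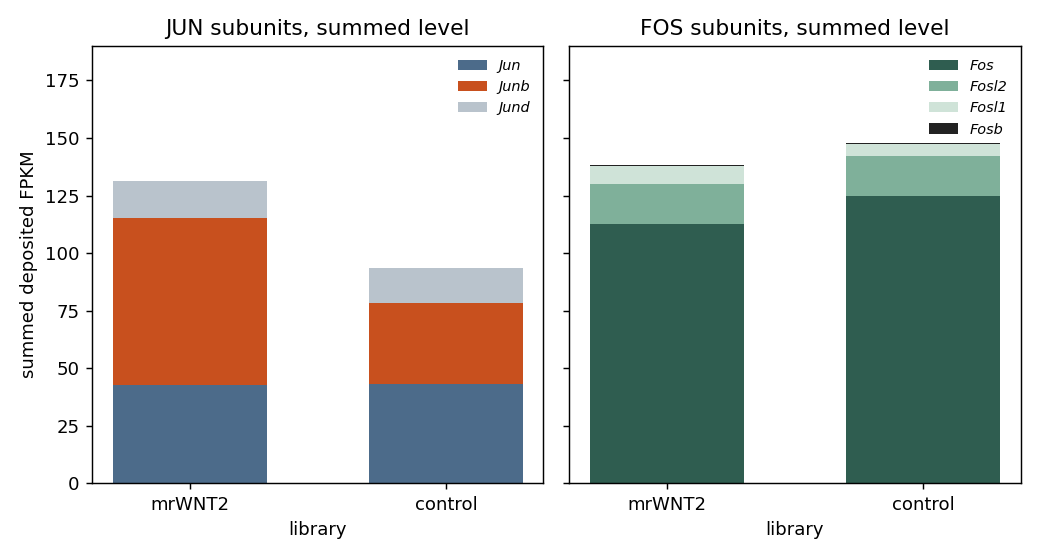
Summed deposited FPKM of the JUN subunits (left panel) and the FOS subunits (right panel) in the mrWNT2 and control libraries, stacked by gene. Junb takes 55.5% of the JUN level in mrWNT2 and 37.6% in control, while Fos takes 81.3% and 84.3% of the FOS level.

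Among the FOS subunits the abundant genes Fos and Fosl2 differed by less than 1.1-fold with TMM scaling, and the scarcer Fosl1 was higher with mrWNT2. Fos (ENSMUSG00000021250, chromosome 12, 85473890 to 85477273), the prototype serum-response gene, had 3403 counts in the mrWNT2 library and 3877 in control, or 268 CPM and 290 CPM. It was 1.08-fold lower (1.03 to 1.13), an interval that excluded 1 although the difference was small. Fosl2 (chromosome 5, 32135801 to 32157842), which encodes the subunit FRA-2, which follows FOS after a stimulus, had 2203 counts in mrWNT2 and 2211 in control, a ratio of 1.05 (0.987 to 1.11). Fos made up 81.3% of the summed FOS level in mrWNT2 and 84.3% in control, and Fosl2 12.8% and 11.7% in the same order.

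Fosl1 (ENSMUSG00000024912, chromosome 19, 5447703 to 5455945) encodes FRA-1, a subunit that lacks the strong activation domain of FOS. It had 171 counts in mrWNT2 and 118 in control, or 13.4 CPM and 8.82 CPM, 1.52-fold higher (1.2 to 1.94). Its share of the FOS level was 5.63% in mrWNT2 and 3.54% in control, so Fosl1 was a minor FOS transcript in both libraries. Against Fos it differed 1.65-fold (1.29 to 2.12), and against Fosl2 1.45-fold (1.13 to 1.87). Fosb (chromosome 7, 19302696 to 19310051), a stimulus-dependent subunit, was scarce, with 33 counts in mrWNT2 and 52 in control. Its ratio was 0.667 with an interval of 0.418 to 1.05, so a difference in Fosb was not detectable at this depth.

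Atf3 (ENSMUSG00000026628, chromosome 1, 191170296 to 191218039) encodes a stress-induced bZIP factor that pairs with JUN proteins and restrains inflammatory genes in macrophages. It had 305 counts in the mrWNT2 library and 225 in control, or 24.0 CPM and 16.8 CPM. Atf3 was 1.43-fold higher (1.2 to 1.70), below the 1.5-fold used for counting but with an interval above 1. Measured against Jun it differed 1.40-fold (1.16 to 1.70) and against Fos 1.54-fold (1.29 to 1.85).

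The EGR genes differed in opposite directions. Egr1 (ENSMUSG00000038418, chromosome 18, 34859823 to 34864984), known for its part in monocyte and macrophage differentiation, had 1348 counts in the mrWNT2 library and 934 in control, or 106 CPM and 69.8 CPM. It was 1.52-fold higher (1.40 to 1.65), and its gain of 36.2 CPM ranked 7 among the 515 transcription factor genes. Egr2 (ENSMUSG00000037868, chromosome 10, 67535475 to 67542188), also linked to macrophage differentiation and to alternative activation, had 94 counts in mrWNT2 and 156 in control, or 7.39 CPM and 11.7 CPM. It was 1.58-fold lower (1.21 to 2.06). The ratio of Egr1 to Egr2 was 10.9 in the mrWNT2 library and 4.54 in control (FPKM), a 2.39-fold difference (1.82 to 3.17) that depends on no scaling. The EGR genes were thus further apart from each other in the mrWNT2 library than in control.

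The 10 genes spanned a wide range of levels per gene length. Fos was highest in both libraries, at 112 FPKM in mrWNT2 and 125 in control, and ranked 6 in both among the 785 measured genes with a transcription factor family. In the mrWNT2 library it was followed by Junb, Jun, Egr1, Fosl2, Jund, Atf3, Fosl1, Egr2 and Fosb. In control the order was Fos, Jun, Junb, Fosl2, Egr1, Jund, Atf3, Fosl1, Egr2 and Fosb. By FPKM, Junb and Egr1 thus each stood 1 place higher in the mrWNT2 library. Junb ranked 13 among the transcription factor genes in mrWNT2 and 40 in control, and Egr1 ranked 62 and 114 in the same order of libraries. Fosl2, Egr1 and Jund were close in control, at 17.3, 15.8 and 15.4 FPKM. In mrWNT2, Egr1 was at 23.4 FPKM, beside 17.7 for Fosl2 and 15.8 for Jund. These orders and distances depend on the length used. For Fosl2 the deposited gene length was 9680 bases and the principal transcript 6537, while for Egr1 both were 4484. With the transcript lengths Fosl2 would stand above Egr1 in both libraries, and Junb above Jun in both. Fosb was lowest in both, at 0.411 FPKM in mrWNT2 and 0.630 in control.

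**Figure D4:**
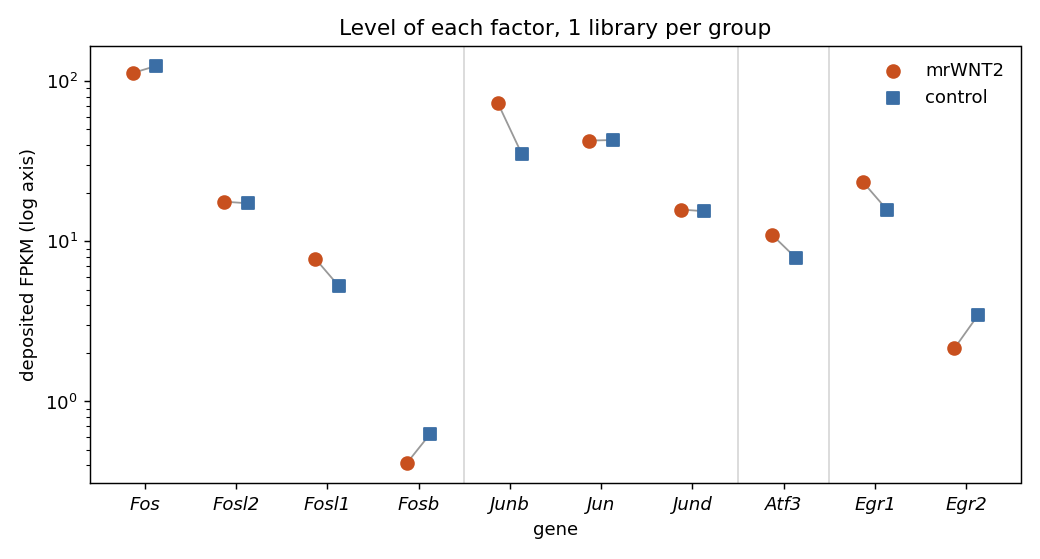
Deposited FPKM (log axis) of each gene in the mrWNT2 library (circles) and the control library (squares), grouped as FOS subunits, JUN subunits, Atf3 and EGR genes; grey lines join the values of a gene. Levels run from 0.411 FPKM for Fosb in mrWNT2 to 125 FPKM for Fos in control, and Junb shows the steepest line.

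Some features of the transcripts were shared. The 3 JUN genes have a principal protein-coding transcript of 1 exon in the GENCODE M21 annotation, which held for 3 of 10 genes of the set and for 1.94% of 11067 measured protein-coding genes. The other genes have 2 exons (Egr1, Egr2) or 4 (the FOS genes and Atf3). The pentamer ATTTA, the core of AU-rich elements that mark short-lived transcripts, occurred at a median of 2.19 per kilobase of 3′ untranslated region, against 1.29 over all measured genes. It was densest in Fos, at 4.91 per kilobase, and in Junb, at 4.12. The longer element TTATTTATT was in 2 of 10 (Fos and Fosl2), against 7.54% of measured genes.

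Related bZIP genes spread to both sides. The counts in this and the following lists stand beside 7.62% of all measured genes at least 1.5-fold higher and 7.02% lower. Of 14 other bZIP genes of the AP-1, MAF, NFE2 and BACH groups, 12 were measured, with 2 at least 1.5-fold higher, 1 lower and 9 between. Their median log2 ratio was -0.13. Maff, which encodes a small MAF protein, had 274 counts in mrWNT2 and 191 in control, 1.51-fold higher (1.25 to 1.82). Batf3, needed for a class of dendritic cells, was 2.28-fold higher (1.11 to 4.96) from 26 counts in mrWNT2 and 12 in control. Maf, a macrophage factor that controls Il10, had 297 counts in mrWNT2 and 539 in control, 1.73-fold lower (1.5 to 2.0). The haem-responsive repressor gene Bach1 was 1.37-fold lower and Nfe2 1.29-fold lower, while Nfe2l1 was 1.36-fold higher. All 12 other ATF and CREB genes were between these limits (median -0.11), with Atf6b 1.16-fold higher and Atf5 1.27-fold lower at the ends. Of the other EGR factors and NAB corepressors, 3 of 5 were measured: Egr3 was 1.55-fold higher (1.12 to 2.15), Nab2 1.28-fold (0.939 to 1.74) and Nab1 1.13-fold. For Egr4 and Wt1 both libraries had 0 counts, which leaves room for a level of 0.236 CPM in mrWNT2 and 0.224 CPM in control.

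Genes of the routes that switch these factors on differed little. With TMM scaling, all 9 genes of SRF, its ternary complex partners and the MEF2 factors were within 1.5-fold (median -0.01). Elk3, an ETS partner of SRF, was 1.48-fold higher (1.32 to 1.67), with 713 counts in mrWNT2 and 505 in control, and its relative Elk4 was 1.40-fold lower (1.24 to 1.57). All 28 measured MAP kinase cascade genes of 29 were within 1.5-fold (median -0.12). Map3k8, which encodes the kinase TPL2 that links NF-kB signalling to ERK, came nearest, with 1231 counts in mrWNT2 and 886 in control (1.46-fold higher, 1.34 to 1.59), and Map3k5 was 1.39-fold lower. The 6 genes of FOS and JUN turnover were also within 1.5-fold (median -0.10), with the JUN ubiquitin ligase genes Itch 1.13-fold and Cop1 1.11-fold lower. MAP kinase activity was not measured, and transcript levels of kinases do not report it.

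Among other immediate early genes most ratios were close to 1. Of 25 listed, 21 were measured, with 1 at least 1.5-fold higher, 0 lower and 20 between, and a median of -0.10. The higher gene was Sgk1, a serum- and glucocorticoid-induced kinase gene, with 3028 counts in mrWNT2 and 986 in control (3.23-fold, 3.00 to 3.47). Nr4a1, an orphan nuclear receptor gene, was 1.48-fold higher (1.21 to 1.8) and the stress gene Ppp1r15a 1.45-fold (1.24 to 1.68). Trib1 was 1.46-fold lower, Rhob 1.39-fold and Btg2 1.35-fold.

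**Figure D5:**
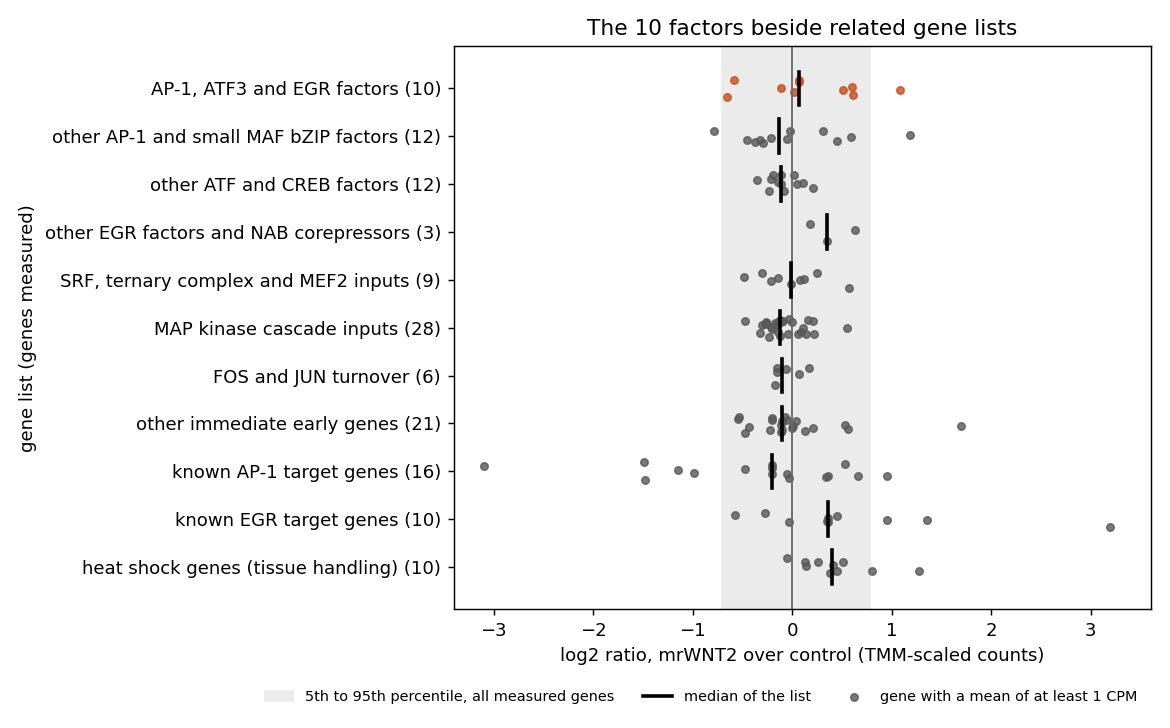
The log2 ratio of mrWNT2 over control for the 10 factors and for genes of 10 related lists (points, measured genes only), with each list's median (black bar) and the 5th to 95th percentile of all measured genes (grey band). MAP kinase, SRF and turnover genes lie inside the band. AP-1 target genes spread to both sides of 0, and 7 of 10 EGR target genes lie to its right. Of the EGR target genes, only Tnf, Icam1 and Ptges lie beyond the band.

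Known targets of these factors were read out as well, beside 7.62% of all measured genes at least 1.5-fold higher and 7.02% lower. Of 17 AP-1 target genes 16 were measured, with 2 at least 1.5-fold higher, 5 lower and 9 between (median -0.20). Tnf was 1.93-fold higher (1.75 to 2.12) and Il6 1.58-fold (1.28 to 1.97), with 217 counts in mrWNT2 and 144 in control. The lower genes were Ccl2 (2.79-fold), Spp1 (2.21-fold), the gelatinase gene Mmp9 (1.98-fold) and, from few counts, Ccnd1 and Timp1. AP-1 targets therefore went both ways, with 5 ratios above 1 and 11 below, beside 6130 of all 12856 measured genes below 1. Of 10 EGR target genes all were measured, with 3 at least 1.5-fold higher, 0 lower and 7 between (median 0.36). Only 6 of the 10 averaged at least 10 CPM, the 3 higher genes among them. The higher ones were the prostaglandin E synthase gene Ptges (9.12-fold), the adhesion gene Icam1 (2.55-fold, 2.25 to 2.89) and Tnf, which stands in both lists. Many of these genes are also induced by other factors, NF-kB among them, and no binding of AP-1 or EGR proteins was measured.

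Handling and culture make-up were followed because both can alter immediate early genes. Of 11 heat shock genes 10 were measured, with 2 at least 1.5-fold higher (Hsph1 at 2.42-fold and Hspa1b at 1.75-fold), 0 lower and a median of 0.40. The summed heat shock level was 2833 CPM in mrWNT2 and 2301 CPM in control, and its part in the ratios of Junb, Egr1 and Atf3 was not tested. Myeloid markers, S100a8 and S100a9 among them, were abundant, at a summed 37288 CPM in mrWNT2 and 43864 CPM in control over 8 genes, with Ly6g 2.0-fold lower and Csf1r 2.37-fold higher. All 10 macrophage markers were past 1.5-fold, 2 higher and 8 lower, with a sum of 1801 CPM in mrWNT2 and 2693 CPM in control. Higher were Marco, at 363 CPM in mrWNT2 and 41.9 CPM in control, and Adgre1, at 584 CPM and 325 CPM. Among the 8 lower ones the largest differences in CPM were in Mrc1 and Apoe. Mrc1 was at 307 CPM in mrWNT2 and 943 CPM in control, and Apoe at 313 CPM and 796 CPM. The lower sum therefore does not describe all 10 markers. The part of these markers in the ratios of Egr2, Maf and the other macrophage-linked factors was not tested, and in bulk RNA fewer cells of a type cannot be told apart from less RNA per cell. Basophil and mast cell markers summed to 207 CPM in mrWNT2 and 243 CPM in control, and stromal and endothelial markers to 57.3 CPM and 65.7 CPM. Most of the stromal and endothelial sum was Pecam1, at 47.9 CPM in mrWNT2 and 41.6 CPM in control. Of 5 measured genes of that list, 3 were at least 1.5-fold lower and 2 between. The lower ones, each averaging below 10 CPM, were Col1a1 (2.61-fold), Col1a2 (4.18-fold) and Sparc (3.07-fold). T cell, B cell, dendritic cell and erythroid lists summed to at most 10.1 CPM in mrWNT2 and 9.50 CPM in control. Among T cell markers, Cd3e, Cd3g and Cd8a had 0 counts in mrWNT2 and 1, 1 and 3 in control, while Cd247 had 36 and 1. Among B cell markers Pax5 had 0 counts in both.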

How the data were processed

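RNA-seq was available for 2 libraries. The authors deposited raw counts for 54751 genes, and FPKM for the same genes. Each table had 1 column per library, whose name matched its label. Per the submitters' processing notes the build was GRCm38 (mm10), and the tools were DESeq2 1.20.0, featureCounts 1.5.0-p3, HISAT2 2.0.5, fastp and CASAVA 1.8. For 10078 genes with over 50 counts in each library, the FPKM and count ratios differed by the same factor within rounding, so the FPKM were used for levels per length and as an alternative scaling.

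Counts were scaled with TMM in edgeR 4.0.16 (R 4.3.3; factors 1.01 for mrWNT2 and 0.992 for control), without a pseudocount. With 1 library per group no test was run. A count of 0 was set to 3 counts, and intervals cover counting error only, since reads carry no molecular identifiers. The computation was run on simulated counts with known ratios. These were drawn with counting error alone, so that run does not bear on variation between cultures. The 10 genes, the accompanying lists and the motifs were chosen with earlier results of these data known; the CRE core and the TATA box were added later. Named list genes are mostly the 3 highest and 3 lowest that averaged at least 10 CPM, and scarcer ones were named after their values were seen. Alternatives were DESeq2 1.42.0 size factors, upper-quartile and total-count scaling, FPKM ratios, a pseudocount of 1 CPM, and other fold and level limits. Promoter windows came from RefSeq (GRCm38.p6) and transcripts from GENCODE M21. Protein sequences were not used here, and 1 gene of the EGR target list is not reported here and stands in none of its counts.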

Additional observations from a re-analysis of the deposited data

How the results depend on the processing

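Under DESeq2 size factors, upper-quartile scaling and deposited FPKM, 1 of the 10 genes was at least 1.5-fold higher and 2 were lower, against 3 and 1 with TMM, so higher calls made up 1 of 3 instead of 3 of 4. These scalings shift every ratio alike: higher and lower genes made up 6.94% and 7.65% of all measured genes with DESeq2 and 6.68% and 8.07% with upper quartile, against 7.62% and 7.02% with TMM. Egr1 and Fosl1 left the higher group and Fosb joined the lower. Ratios above 1 numbered 6 of 10 with DESeq2 and with upper quartile, against 7 with TMM. The gene that moved was Jun, to log2 ratios of -0.012 and -0.031. The median over all measured genes became -0.017 and -0.035, and that of the 10 genes 0.034 and 0.016, in the same order. Total counts gave 3 genes at least 1.5-fold higher and 1 lower, and a pseudocount of 1 CPM gave 2 and 1. A 2-fold limit left 1 higher (Junb) and 0 lower. Among the genes that averaged at least 10 CPM, 0 were lower, since Egr2 and Fosb are scarcer, and the median log2 ratio was 0.29. Of 52 recomputed ratios of single genes, 51 stayed within their counting interval and 0 called ones changed sign. The exception was Junb with the reads of Prdx2 added (0.94 on the log2 scale). Most of the 52 moved all 10 genes by the same small shift, of 0.022, -0.034 or -0.052 on the log2 scale. FPKM ratios repeat those with DESeq2 size factors, so the count of 51 was nearly fixed in advance. The share of all genes at least 1.5-fold higher was 4.12% among those that averaged at least 10 CPM and 11.9% with no minimum above the floor. For lower genes it was 2.95% and 13.1%. Counts of the accompanying lists used TMM and were not recomputed with the other scalings. Some of their genes lay close to 1.5-fold, Maff at 1.51-fold higher and Elk3 at 1.48-fold higher among them. No paired analysis was possible because each group had 1 library, and no replicate could be left out. Depth limited Fosb, whose counts of 33 in mrWNT2 and 52 in control cannot show a difference of their size.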

Other observations

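The bZIP family as the deposited table labels it reaches beyond the 10 genes. Without the 8 bZIP genes of the set, 32 bZIP genes were measured, and 22 of them had a ratio of mrWNT2 over control below 1, with a median log2 ratio of -0.11. Ratios below 1 were also found for 454 of 785 measured genes with a transcription factor family and for 6130 of all 12856 measured genes, and no test was run. Of the 32 bZIP genes, 2 were at least 1.5-fold higher and 1 lower. For the 785 genes the median was -0.05, where 5.99% (47 genes) were at least 1.5-fold higher and 4.2% (33 genes) lower. The median of the set of 10 was 0.07.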
